A study of Arabidopsis thaliana with 8 samples.

Results

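The comparison described here is 6 h of cold in L20, a transgenic line of Arabidopsis thaliana in which TabZIP6 is overexpressed. TabZIP6 comes from wheat and encodes a bZIP (basic leucine zipper) transcription factor. L20 seedlings held at 4 °C for 6 h (2 arrays) were set against L20 seedlings of 10 days taken at 22 °C before the cold (2 arrays), so 4 of the 8 arrays of the study enter the contrast. The other 4 arrays hold wild-type seedlings of ecotype Col-1 after the same cold (2 arrays) and before it (2 arrays). They are used here for the estimate of the spread and for the wild-type values given beside some L20 values. Both L20 groups carry the transgene and come from 1 line. None of the 8 arrays is a 22 °C sample of the later time, so cold cannot be told apart from 6 h of elapsed time or from time of day. The labels do not give the promoter that drives TabZIP6. Every array measured whole seedlings, in which fewer cells of a type and less RNA per cell cannot be told apart.

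A gene is read on these Affymetrix arrays by a set of short probes, a probe set, and values are robust multi-array average (RMA) levels on the log2 scale. All 22746 probe sets other than the 64 control sets were tested; 13513 of them carried 1 gene name, and they stood for 13350 genes. TabZIP6 is a wheat gene and its level was not analysed here. The labels call the replicates biological and do not say how they were grown apart, so a p-value reflects only how far these samples vary, which may be technical. Array medians of the 4 L20 arrays ran from 5.01 to 5.05. RCA, the Rubisco activase of green tissue, averaged 13.28 after cold and 12.76 before, against 4.55 and 4.39 for the 2 measured root markers; 0 of the 7 seed markers had a named probe set here.

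As background, chilling of Arabidopsis sets off a fast programme in which CBF transcription factors switch on cold-regulated (COR) genes, while growth, which depends on auxin and on enzymes that loosen the cell wall, slows. Over hours, plants in the cold also accumulate soluble sugars, antioxidants such as ascorbate and glutathione, and flavonoids. bZIP factors bind promoter elements with an ACGT core, and many act in stress and abscisic acid signalling.

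After 6 h of cold, L20 had higher levels of VTC4, UGT78D2, TIL, SWEET2 and EXPB3 and of 21 genes known by locus number alone, and lower levels of 6 such loci. Over all probe sets, limma called 86 (0.378% of those tested) at an adjusted p under 0.05, of which 63 were higher after cold (0.277%) and 23 lower (0.101%). The smallest of these changes was 1.34 on the log2 scale, so each was at least 2-fold, and the 2 cold arrays did not overlap the 2 arrays before cold in any of the 86; over all probe sets, 15.4% were non-overlapping and higher and 18.1% non-overlapping and lower. An unadjusted p under 0.05 was found for 2214 probe sets (9.73%). The median called increase was 2.42 and the median called decrease -1.91; 46 increases and 10 decreases were at least 4-fold. With the replicate number as a block, a term that removes what same-numbered arrays of all groups share, 580 probe sets were called (2.55%), 290 higher (1.27%) and 290 lower (1.27%), and they held all 86. The share of increases among the calls was thus 73.3% without the block and 50% with it.

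Most probe sets stayed near 0. The median change over all probe sets was 0.00, and the central 90% of changes lay between -0.75 and 0.62 on the log2 scale. A change of at least 2-fold in both replicate numbers was seen for 324 probe sets upward and 259 downward. The change in replicate 1 and the change in replicate 2 correlated at 0.60 over the probe sets, which do not count as replicates. Without the block, the calls also rest on single arrays. The count of 86 was 1 without either L20 cold array, 0 when the L20 array before cold of replicate 1 was left out and 11 when that of replicate 2 was, and 28 to 34 without any 1 of the wild-type arrays.

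**Figure D1:**
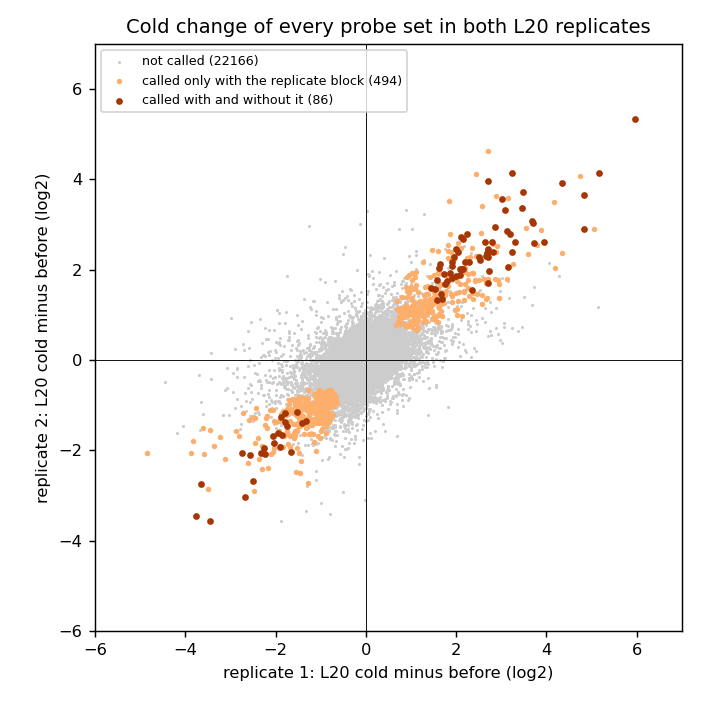
Change of each probe set with cold in L20 (log2, cold minus before) in replicate 2 on the y axis against replicate 1 on the x axis, with probe sets called without the block and with the block marked. Called probe sets lie in the upper right and lower left, since all 580 had the same sign in both replicates, and the uncalled ones surround 0.

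The named increases were led by loci without a gene symbol. AT3G44450 had 8.23 and 6.96 in L20 after cold (replicate 1, then replicate 2), against 3.39 and 4.05 before cold. Both cold arrays were far above both earlier ones, by 3.87 ± 0.45 (standard error, SE) on the log2 scale (adjusted p = 0.0288, limma). No detection calls were used, so for probe sets near or below the median L20 level before cold of 5.04, this one included, levels may lie at background and log2 differences may understate a change. AT3G55580 had 8.26 and 7.85 after cold, against 4.55 and 4.82 before cold, a difference of 3.36 ± 0.21 with the smallest adjusted p of the named genes (0.00665). Neither its cold nor its earlier pair spread by more than 0.5, and the groups were well apart. AT3G17130 rose by 3.60 ± 0.33, AT1G48100 by 3.38 ± 0.46 and AT1G73480 by 3.33 ± 0.41 (adjusted p = 0.0181, 0.0447 and 0.0351, limma). In AT1G48100 the cold replicates differed by more than 1, at 9.54 and 8.20, against 5.86 and 5.11 before cold, and the groups still did not overlap. The other loci with increases ran from 1.45 for AT1G77090 to 2.99 for AT1G65490. Over all 26 named increases, the adjusted p was 0.00665 to 0.0482 without the block and 0.00162 to 0.0214 with it. Each passed in 8 to 18 of up to 23 alternative analyses, with adjusted p-values up to 0.114 to 0.277. Probe sets below the median mean level were not in 1 of the alternatives.

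**Figure D2:**
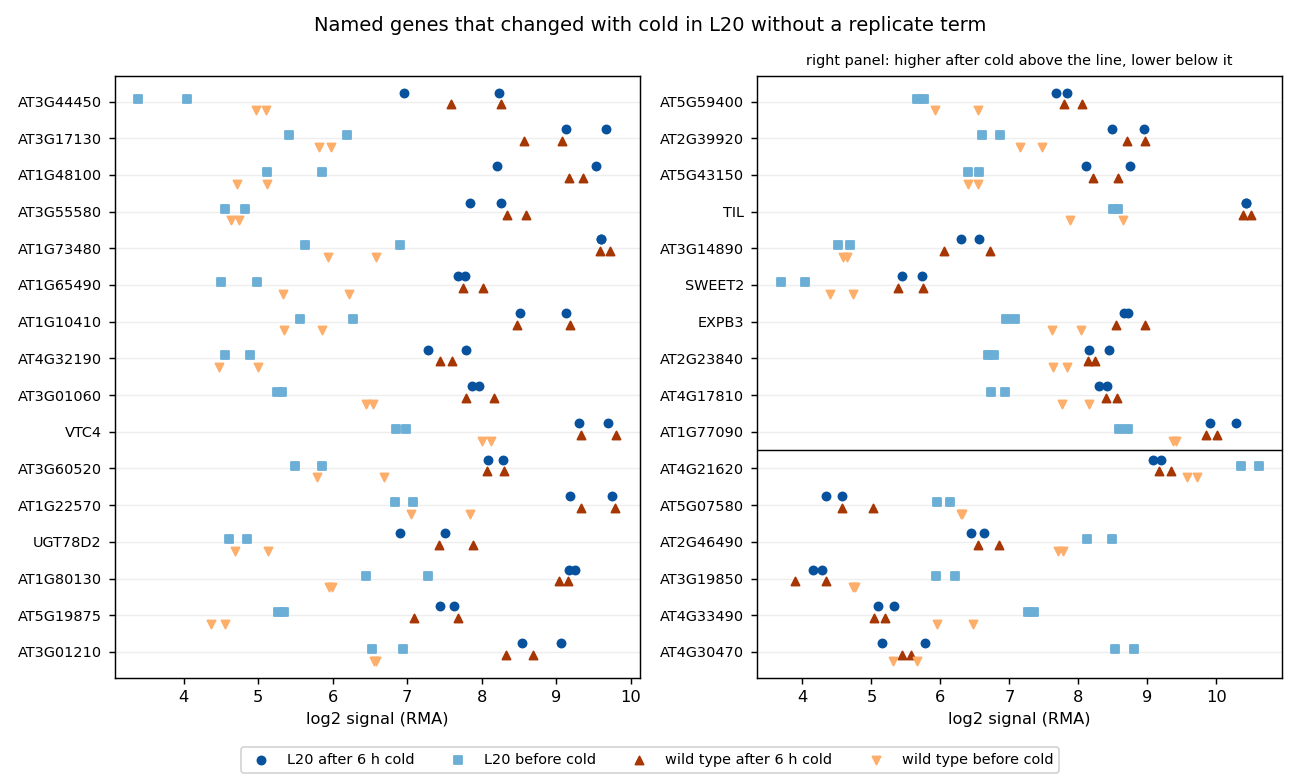
Log2 RMA levels in all 8 arrays of the 32 named genes called without the block; points are single arrays, with L20 after and before cold above wild type after and before cold in each line. In every gene the L20 arrays after cold are separate from those before; the 6 lower genes are below the line in the right panel.

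VTC4 and TIL rose without the block. VTC4, a phosphatase of ascorbate synthesis, had 9.70 and 9.31 after cold, against 6.99 and 6.86 before cold. The cold arrays were higher by 2.58 ± 0.23, a 5.99-fold difference (adjusted p = 0.0173, limma), with little spread in either pair. TIL, the temperature-induced lipocalin that protects membranes, had 10.43 and 10.43 after cold, against 8.58 and 8.50 before cold. It rose by 1.89 ± 0.26 (adjusted p = 0.0482), and its 2 cold arrays were equal to 2 decimals. GR1, a glutathione reductase, had 9.73 and 10.02 after cold, against 8.11 and 8.04 before cold, and passed only with the block (1.80 ± 0.35, adjusted p = 0.0293, against 0.107 without it). AOR, a plastid enzyme that reduces reactive carbonyls, likewise passed only with the block, with a difference of 1.73 ± 0.35 (adjusted p = 0.0491). The redox list holds peroxidases, thioredoxins and glutaredoxins but neither GR1 nor AOR. Of its 9 measured genes, 0 were called by limma without or with the block. An unadjusted p under 0.05 was found for 1 of the 9, against 9.73% of all probe sets. The list median was -0.05, against 0.00 over all genes.

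Among the measured flavonoid glycosyltransferases, 1 gene was called. UGT78D2, which adds glucose to flavonoids and anthocyanidins, had 7.50 and 6.91 after cold, against 4.85 and 4.61 before cold, a rise of 2.48 ± 0.29 (adjusted p = 0.0288, limma). Its close relatives UGT78D1 and UGT78D3 differed by 0.18 and 0.07 and were not called. UF3GT, another glycosyltransferase of the list, differed by 0.39 and was not called. DFR, dihydroflavonol reductase of anthocyanin synthesis, differed by 0.43 and was not called. In the flavonoid list as a whole, 1 of 8 measured genes rose without the block (0.277% of all probe sets) and 0 fell, with a median of 0.22. CHI, PAP20 and PAP85 are in it by the start of their symbols alone. Among 80 glycosyltransferases, glutathione transferases and beta-glucosidases, 1 rose without the block (0.277% of all probe sets) and 3 with it (1.27%). In either, 0 fell, and the median was 0.03. The other two were UGT72B3 (1.59 ± 0.24) and GSTU26 (1.07 ± 0.23), with adjusted p = 0.00862 and 0.0416 with the block, against 0.0629 and 0.145 without it. All 26 measured genes of the cytochrome P450 list, which holds the cyclophilins CYP71 and CYP59 by symbol alone, were uncalled in both limma analyses. P450 genes known by locus number alone are outside this list. Of the 26, 2 had an unadjusted p under 0.05, against 9.73% of all probe sets.

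Among sugar carriers of the SWEET family, 1 rose without the block. SWEET2, a sugar carrier of the vacuole membrane, had 5.44 and 5.73 after cold, against 3.68 and 4.04 before cold. The rise was 1.72 ± 0.24 (adjusted p = 0.0473, limma), and the groups did not overlap. SAG29, also called SWEET15, a sucrose exporter linked to senescence, had 8.93 and 7.44 after cold, against 5.98 and 6.06 before cold, a difference of 2.17 ± 0.50 that passed with the block (adjusted p = 0.0447) and not without it (0.168). Its cold replicates spread by about 1.5 and both lay above the earlier arrays. SWEET13 passed with the block as well (1.51 ± 0.48, adjusted p = 0.0391), whereas SWEET4 had a difference of -1.89 and SWEET1 of 1.17 and neither passed. In wild type SWEET13 differed by 0.99, SWEET4 by 1.24 and SWEET1 by 0.64. DPE1, the plastid enzyme that processes maltotriose during starch breakdown, had 6.12 and 6.52 after cold, against 7.54 and 7.83 before cold, and fell by 1.36 on the log2 scale (adjusted p = 0.0103 with the block, 0.0767 without). AKINBETA1, a subunit of the SnRK1 energy-sensing kinase, had a difference of -1.45 ± 0.33 (adjusted p = 0.0191 with the block, 0.167 without). Of the 18 measured genes of the starch and sugar list, 1 rose and 0 fell without the block, where 0.277% and 0.101% of all probe sets did. With the block, 2 rose and 1 fell, where 1.27% did each way, and the list median was -0.03. SAG29 is not one of the 18, and TPP2 is one by symbol alone. Most of the 18 are SWEET carriers, and the only starch enzymes among them are DPE1, PWD and SBE2.2. PWD and SBE2.2 differed by -0.66 and 0.63 and were not called.

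The decreases called without the block were 6 loci without a symbol. AT4G30470 had 5.16 and 5.78 after cold, against 8.81 and 8.53 before cold, a difference of -3.20 ± 0.26 (adjusted p = 0.0122, limma). In wild type the same locus had 5.45 and 5.57 after cold, against 5.31 and 5.66 before cold, so the earlier L20 arrays were the only 2 of the 8 above 6. AT4G33490 had 5.10 and 5.33 after cold, against 7.36 and 7.28 before cold. AT3G19850 fell by 1.85 on the log2 scale, AT2G46490 by 1.76, AT5G07580 by 1.58 and AT4G21620 by 1.34. The adjusted p of the 6 ran from 0.0122 to 0.0447 (limma). Each passed in 6 to 16 of up to 23 alternatives, with adjusted p-values up to 0.121 to 0.290.

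With the block, a further 232 named probe sets were called, 105 higher and 127 lower, at adjusted p-values of 0.0028 to 0.0498. Each passed in 3 to 12 of up to 23 alternatives, where adjusted p-values ran from 0.00169 to 0.997. Standard errors beside such genes are those without the block. Auxin and wall genes were among the decreases. IAA29, a repressor of auxin signalling that auxin itself induces, had 5.26 and 6.60 after cold, against 8.76 and 9.45 before cold. Both cold arrays were far below both earlier ones, at -3.17 ± 0.57 (adjusted p = 0.0191 with the block, 0.0872 without). WES1, also named GH3.5, which conjugates auxin to amino acids, had 6.40 and 7.55 after cold, against 8.71 and 9.96 before cold. Its replicates differ by over 1 in each pair and in the same direction, and its difference of -2.36 ± 0.81 had an adjusted p of 0.00659 with the block and 0.373 without. HAT2, an auxin-induced homeobox factor, had 7.52 and 8.21 after cold, against 9.64 and 9.32 before cold (-1.62 ± 0.36, adjusted p = 0.0403 with the block). GH3.3, another conjugating enzyme, had 4.16 and 5.42 after cold, against 7.07 and 6.48 before cold, and was not called (-1.98 ± 0.67, adjusted p = 0.102 with the block). The 16 measured auxin genes held 0 calls without the block. With it, 0 were higher and 2 lower, IAA29 and WES1, where 1.27% of all probe sets were called each way. The median of the 16 was -0.05, and IAA18, at -0.77, and YUC2, at -0.72, were not called.

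Wall and growth genes moved both ways. EXO (EXORDIUM), a wall protein that promotes growth in response to brassinosteroid, had 6.20 and 5.66 after cold, against 8.67 and 8.56 before cold, a difference of -2.69 ± 0.45 (adjusted p = 0.0359 with the block, 0.0782 without). EXPA16, an alpha-expansin, one of the proteins that loosen cell walls, had 4.66 and 4.20 after cold, against 6.34 and 5.89 before cold (-1.68 ± 0.24, adjusted p = 0.0086 with the block, 0.0522 without). A second alpha-expansin, EXPA4, differed by -1.01 ± 0.29 (adjusted p = 0.0408 with the block). RALFL33, a secreted growth-regulating peptide, had 7.78 and 7.94 after cold, against 10.25 and 9.77 before cold, and THE1 (THESEUS1), a receptor kinase that monitors the wall, had 5.16 and 4.57 after cold, against 6.49 and 6.00 before cold. In both genes the cold arrays lay below the earlier ones, by 2.15 and 1.38 on the log2 scale (adjusted p = 0.0219 and 0.0214 with the block).

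In the opposite direction, EXPB3, a beta-expansin, had 8.66 and 8.72 after cold, against 7.08 and 6.95 before cold, and rose by 1.68 ± 0.22 without the block (adjusted p = 0.0436, limma). XTH32, a xyloglucan-modifying enzyme, had 8.57 and 7.78 after cold, against 6.39 and 6.27 before cold (1.84 ± 0.29, adjusted p = 0.0253 with the block). GH9C2, an endoglucanase of the glycosyl hydrolase family, had 9.65 and 9.57 after cold, against 8.23 and 7.74 before cold (1.62 ± 0.23, adjusted p = 0.0094 with the block). Of the 35 measured wall-remodelling genes, 1 rose and 0 fell without the block, where 0.277% and 0.101% of all probe sets did. With the block, 2 rose and 3 fell, where 1.27% of all probe sets were called each way. The list median was 0.04, and EXO84B and ARLA1A to ARLA1D are in the list by the start of their symbols alone. All 11 measured genes of cellulose and hemicellulose synthesis were uncalled in both limma analyses, with a median of -0.13. Of the 11, 1 had an unadjusted p under 0.05, against 9.73% of all probe sets.

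**Figure D3:**
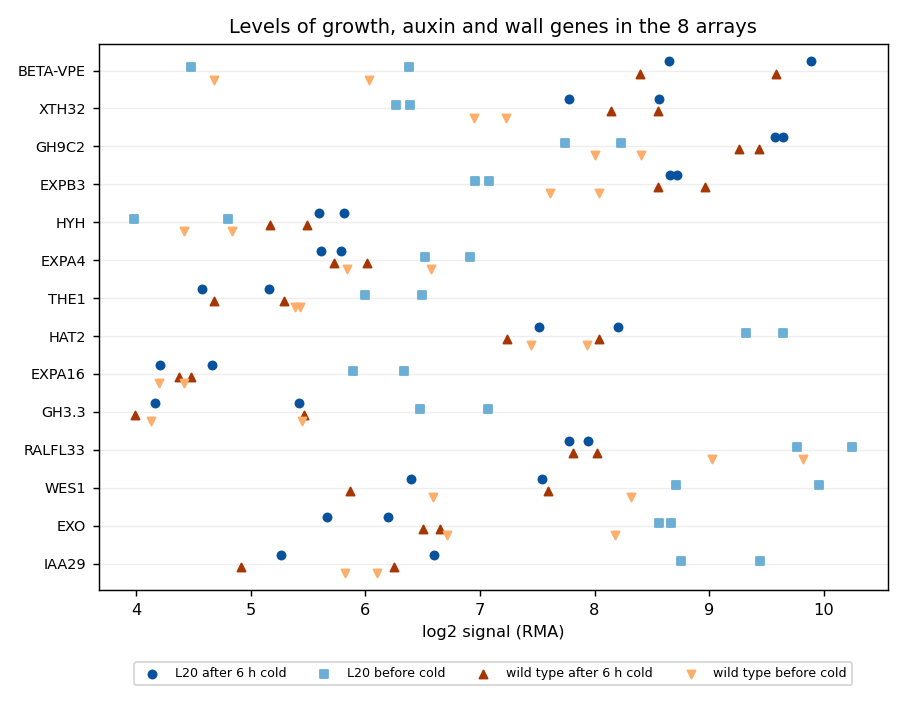
Log2 RMA levels of 14 growth, auxin, wall and other genes in all 8 arrays, 1 point per array. The L20 arrays before cold lie apart from the L20 arrays after cold in every gene shown, including GH3.3, which was not called.

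Loci without a symbol were also among the changes called only with the block. AT5G47060 had 10.61 and 8.95 after cold, against 6.73 and 6.07 before cold, and AT3G44970 had 8.17 and 8.78 after cold, against 5.02 and 5.19 before cold. The cold arrays were higher in both loci, by 3.38 ± 0.68 and 3.37 ± 0.48 on the log2 scale (adjusted p = 0.0315 and 0.00563 with the block). AT4G12980 had 9.65 and 7.71 after cold, against 5.31 and 5.34 before cold, with cold replicates nearly 2 apart. AT1G55960 differed by 3.17 ± 0.61. In the other direction, AT5G41900 had 6.04 and 5.77 after cold, against 9.63 and 7.85 before cold, and AT1G64380 had 3.49 and 4.12 after cold, against 7.31 and 5.92 before cold. Their earlier replicates were far apart and still above both cold arrays (-2.83 ± 0.56 and -2.81 ± 0.51, adjusted p = 0.0195 and 0.0487 with the block). Wild type lay low in both states at these loci: AT1G64380 had 3.57 and 4.36 after cold, against 3.60 and 4.14 before cold. AT4G27280 had 6.52 and 5.99 after cold, against 8.83 and 7.90 before cold (-2.11 ± 0.35, adjusted p = 0.029 with the block), and in wild type its difference was -4.12.

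A vacuolar protease had the largest of the named increases that passed only with the block. BETA-VPE, the beta vacuolar processing enzyme, had 8.65 and 9.89 after cold, against 4.48 and 6.38 before cold. Its replicates were shifted alike in both groups, and its difference of 3.84 ± 0.80 had an adjusted p of 0.0028 with the block and 0.129 without. SERPIN1, a protease inhibitor, had 8.76 and 8.82 after cold, against 7.40 and 7.35 before cold (1.42 ± 0.20, adjusted p = 0.0159 with the block, 0.0505 without). PUB25, a ubiquitin ligase that acts in cold signalling, had 4.92 and 4.53 after cold, against 6.11 and 5.98 before cold, and fell by 1.32 on the log2 scale (adjusted p = 0.0213 with the block). In the protein degradation list of 33 measured genes, 0 were called without the block, with 7 at an unadjusted p under 0.05 (9.73% of all probe sets), and 2 rose and 1 fell with it (1.27% of all probe sets each way); one of the 2 was SAG29, a sugar transporter despite its place in that list.

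The lists of transcription factors and signalling genes gave few calls. Family lists were matched by symbol, so factors known by locus number alone are outside them. HYH, the bZIP factor closest to the light regulator HY5, had 5.59 and 5.81 after cold, against 3.98 and 4.80 before cold. Of 15 measured bZIP genes it alone passed with the block, where 1.27% of all probe sets rose (1.31 ± 0.31, adjusted p = 0.0253, against 0.177 without). BZIP61 had 5.08 and 4.48 after cold, against 6.96 and 8.05 before cold, and its difference of -2.72 ± 0.51 did not pass (adjusted p = 0.102 without the block and 0.0538 with it). DEWAX, listed as AT5G61590, a repressor of wax synthesis, differed by -1.75 ± 0.59 (adjusted p = 0.0484 with the block). bHLH121, a regulator of iron homeostasis, differed by -0.85 ± 0.54 (adjusted p = 0.0443 with the block, 0.791 without). The 4 measured genes of the iron list were not called, and FER (the receptor kinase FERONIA) and FRO1 (FROSTBITE1) are members by symbol alone. The list median of -0.52 lies between FER, at -0.58, and FRO1, at -0.47. BHLH101 and PYE differed by -0.07 and -0.61. Of the 4, 1 had an unadjusted p under 0.05, against 9.73% of all probe sets (limma). All 4 were lower in both replicates, against 32.2% of all probe sets. RR16, a response regulator that cytokinin induces, had a difference of 1.23 ± 0.42 (adjusted p = 0.0359 with the block). NPF3.1 (AT1G68570), a nitrate and gibberellin transporter, had 9.33 and 8.63 after cold, against 7.03 and 6.35 before cold (2.29 ± 0.35, adjusted p = 0.0209 with the block). CaS, a calcium-sensing protein of the thylakoid, had 10.16 and 8.91 after cold, against 7.90 and 7.13 before cold (2.02 ± 0.52, adjusted p = 0.0299 with the block). All 15 measured genes of the calcium list, in which CBL is a cystathionine beta-lyase, were uncalled in both limma analyses. Of the 15, 1 had an unadjusted p under 0.05, against 9.73% of all probe sets. GR1, AOR, AKINBETA1, RR16, NPF3.1, DEWAX, CaS, SERPIN1, THE1 and GH9C2 fell outside the rule for naming genes and were chosen after their values were seen, as were the uncalled list members whose values are given.

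The measured genes of the CBF and COR list gave no call in L20, where the list median was 0.54, against 2.28 in wild type. Of the 20 CBF and COR genes sought, 6 had a named probe set. The CBF factors were not among the 6, so their response was not seen here. By limma, 0 of the 6 were called without or with the block. An unadjusted p under 0.05 was found for 2 of the 6, against 9.73% of all probe sets. AT4G33980 had the largest L20 change of the list, with 8.65 and 8.45 after cold, against 6.74 and 6.70 before cold. Its difference of 1.83 ± 0.35 did not pass (adjusted p = 0.107 without the block, 0.0556 with it, limma). COR27 and COR15B differed by 0.56 and 0.50. COR15A, a chloroplast protein that stabilises membranes in freezing, had 10.63 and 10.25 after cold, against 9.70 and 10.14 before cold (0.52 ± 0.26). LTI30, a dehydrin, had 11.80 and 12.09 after cold, against 10.84 and 9.79 before cold (1.64 ± 0.47, adjusted p = 0.275), and COR47, a second dehydrin, had 12.44 and 12.24 after cold, against 12.62 and 12.51 before cold. The 4 L20 levels lay within 1 of each other in COR47 and in COR15A, and those of LTI30 were higher after cold. In wild type, LTI30 had 11.65 and 12.09 after cold, against 5.12 and 6.29 before cold, a difference of 6.16. COR47 differed by 2.25 in wild type and by -0.23 in L20. For the difference between the 2 responses, the unadjusted p was 0.000274 for LTI30 and 0.000258 for COR47 (limma). The adjusted p was 0.779 for each.

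Clock and early stress genes were represented by 3 genes each. GI (GIGANTEA), a clock component, had 8.93 and 8.38 after cold, against 7.35 and 7.06 before cold (1.45 ± 0.30), and did not pass (adjusted p = 0.122 without the block, 0.06 with it). AT5G52660, in the clock list, differed by 1.21 ± 0.35 and passed with the block (adjusted p = 0.0452), where 1.27% of all probe sets rose. The remaining clock gene, AT4G01280, differed by -0.14 and was not called. Of the 3 clock genes, 2 had an unadjusted p under 0.05, against 9.73% of all probe sets (limma). In wild type GI differed by 1.12 and AT5G52660 by 1.51. STZ, a zinc-finger repressor of the early stress response, had 8.89 and 7.99 after cold, against 8.11 and 6.31 before cold, with overlapping groups and no call (1.23 ± 0.62). ORA47, a jasmonate-linked factor, had 5.11 and 4.04 after cold, against 5.82 and 4.07 before cold, again with overlap (-0.38 ± 0.63). In wild type ORA47 had 4.64 and 3.91 after cold, against 8.91 and 8.29 before cold, a difference of -4.32. STZ differed by -0.95 in wild type. Neither gene was called for a difference between the 2 responses. AT1G25550, the remaining early stress gene, differed by -0.67 ± 0.28 in L20, without a call, and by -1.56 in wild type. Of the 3 early stress genes, 1 had an unadjusted p under 0.05, against 9.73% of all probe sets (limma).

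The gene lists for photosynthesis and pigments gave no call. Nuclear genes known by locus number alone are outside them, and so is the thylakoid protein CaS. The 7 measured nuclear genes for light harvesting and photosystems had a median of 0.15 and the 12 of the chlorophyll and carotenoid list, which holds PSY1R, POR and CHL by symbol alone, a median of -0.25; limma called 0 of either without or with the block, and 0 had an unadjusted p under 0.05. The 69 measured genes of the plastid genome had a median of -0.10, with 14 higher (20.3%) and 29 lower (42.0%) in both replicates, against 31.2% and 32.2% of all probe sets, and 0 calls with 0 at an unadjusted p under 0.05. The pathogen-response list had 8 measured genes, of which rps2 (a plastid gene here) and the peptide deformylases PDF1A and PDF1B are members by symbol alone. It had a median of 0.41 and 0 calls in both limma analyses, and PDF1.2b, a defensin, was at 1.74. Of the 8, 2 had an unadjusted p under 0.05, against 9.73% of all probe sets.

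**Figure D4:**
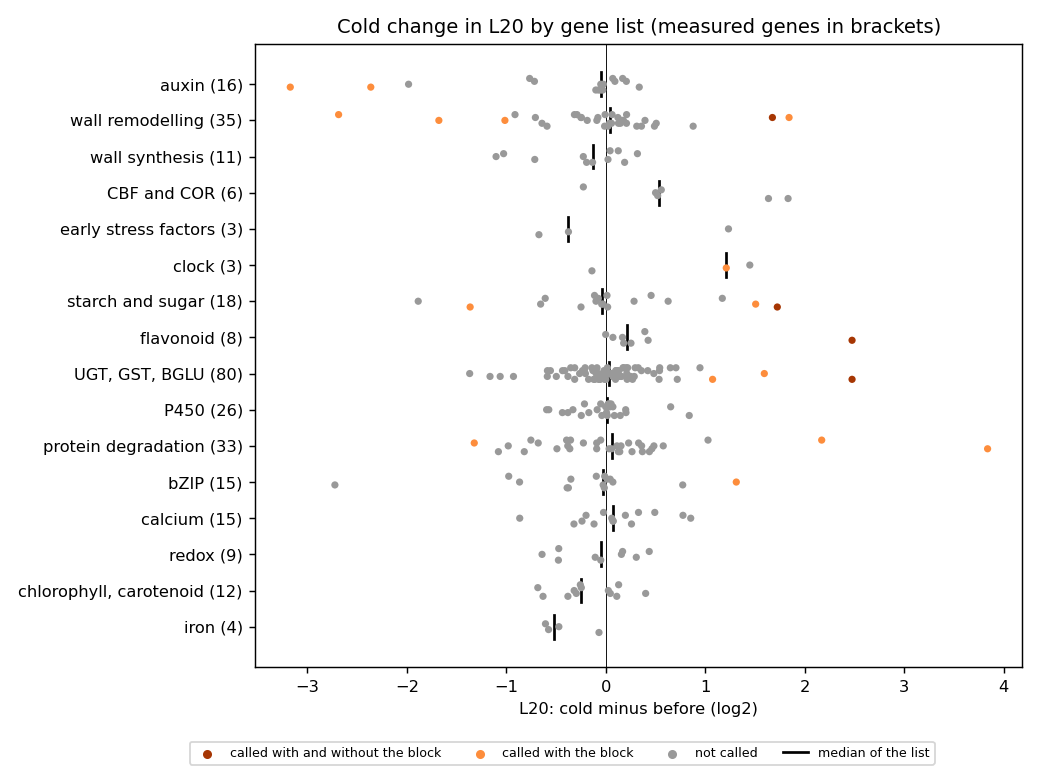
Change with cold in L20 (log2, cold minus before) of every measured gene of 16 gene lists, with 1 point per gene and the median as a vertical bar. List medians lie between -0.52 and 1.21, and most points are grey, not called.

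Set beside wild type, the L20 increases were mostly shared. All 63 probe sets called higher in L20 had a positive difference in wild type, with a median of 1.94, and 40 of them were called there as well (wild-type background 0.404% higher); over all probe sets 62.3% had the same sign in both. Their median levels were 8.49 after cold and 5.71 before cold in L20, and 8.48 after cold and 5.98 before cold in wild type. Of the 23 decreases, 21 had a negative difference in wild type, 6 were called there (background 0.127% lower), and the wild-type median was -0.64. The median levels of these 23 were 5.97 after cold and 8.38 before cold in L20, and 5.93 after cold and 6.81 before cold in wild type. These 23 were chosen for L20 levels that were higher before cold than after it. That choice favours a wider gap between the genotypes before cold. The contrast of the 2 genotypes before cold uses the same L20 arrays as the contrast described here, so these levels are given side by side without a test. With the block, 140 of the 290 increases were called higher in wild type (background 1.01%) and 59 of the 290 decreases lower (background 0.558%), and 2 decreases were called higher. In wild type itself 121 probe sets were called (0.532%), and 357 with the block (1.57%).

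No probe set was called for a difference between the responses of L20 and wild type. The count was 0 without and with the block by limma, while 497 probe sets (2.18%) had an unadjusted p under 0.05 without it and 1215 (5.34%) with it. The lowest adjusted p was 0.297 without the block and 0.0714 with it. The gene with the lowest p among the named decreases was AT4G30470, whose response differed by -3.23 ± 0.36 (adjusted p = 0.297). IAA29 differed between the genotypes by -2.79 ± 0.80, EXPA16 by -1.80 ± 0.34 and HAT2 by -1.57 ± 0.51 in their responses, with adjusted p = 1 for each without the block and 0.503, 0.243 and 0.643 with it. In wild type IAA29 had 4.92 and 6.25 after cold, against 6.10 and 5.82 before cold, and EXPA16 had 4.48 and 4.38 after cold, against 4.41 and 4.20 before cold. The wild-type groups overlap in both IAA29 and EXPA16. Increases such as VTC4, at 1.08 ± 0.32, and SWEET2, at 0.72 ± 0.33, were larger in L20 than in wild type by amounts that did not pass (adjusted p = 1), and BETA-VPE (0.20) and UGT72B3 (0.00) differed little.

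**Figure D5:**
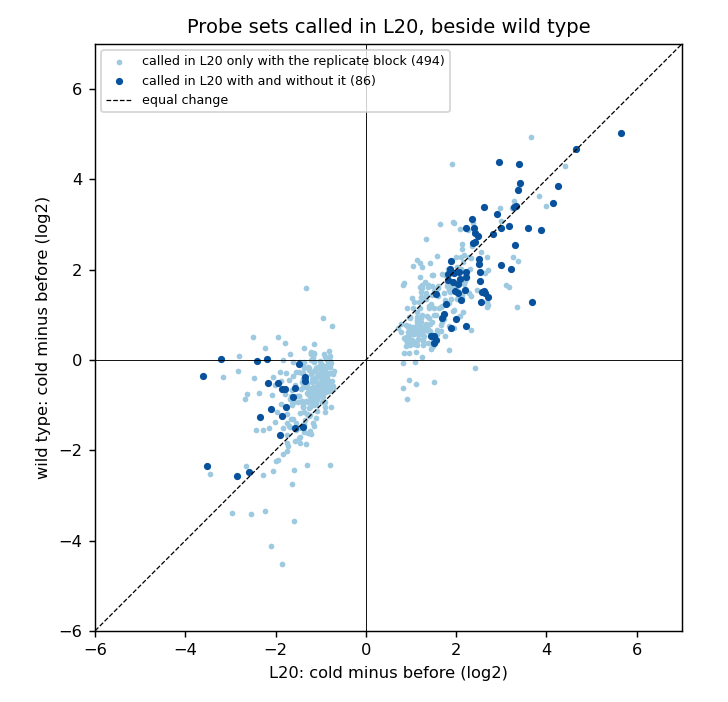
Change with cold in wild type (y axis, log2) against the change in L20 (x axis, log2) for the 580 probe sets called in L20; dark points are the 86 also called without the block and the dashed line marks equal change. Most called increases lie in the upper right, and called decreases in L20 reach down to -3.61 where wild type is often nearer to 0. The points were chosen by their change in L20, which favours a smaller change in wild type. No probe set was called for the difference.

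Of the 86 calls, 53 carried no gene name in the annotation used. The largest increase of all was probe set 266719_at, which had 10.36 and 9.75 after cold, against 4.40 and 4.41 before cold (5.65 ± 0.25), and in wild type it differed by 5.04. Probe set 252414_at rose by 4.65 ± 0.32 in L20 and differed by 4.68 in wild type. The largest decrease, 261570_at, had 6.61 and 6.38 after cold, against 10.38 and 9.84 before cold (-3.61 ± 0.36), and differed by -0.36 in wild type. Probe set 245362_at differed by -3.51 ± 0.25 in L20 and by -2.35 in wild type.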

How the data were processed

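The authors deposited 1 table of log2 values for 22810 probe sets on 8 arrays; RMA is named by the submitters' processing notes, and its version, the software and whether the arrays were processed together are not given in the sources used here. Biotin-labelled cRNA came from 6 ug of total RNA, per the labels. RMA normalises arrays to each other, which can hide a change shared by most genes; the deposited arrays still differed, with medians of 4.95 to 5.05 and upper quartiles of 6.28 to 6.64 over the tested probe sets. Scanner files were not used here, so background per probe was not analysed, and the number of arrays limits the precision.

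The 64 control probe sets were left out. Gene names came from the platform annotation, updated by Entrez identifier with RefSeq names (TAIR10.1); of 22746 probe sets, 13513 had 1 gene, 503 several and 8730 none, and 13436 matched RefSeq. The probe set with the highest mean over 8 arrays stood for a gene. Promoter and protein sequences were not analysed here.

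limma 3.58.1 (R 4.3.3) was fitted over all 8 arrays with 1 mean for each group (eBayes, two-sided, Benjamini-Hochberg over 22746); probe sets with an adjusted p under 0.05 were called. Differences are log2, cold minus before, with limma's standard error. An exact permutation test of 2 against 2 cannot go below p = 0.333. Whether replicate numbers pair the arrays was checked first: replicate 1 minus replicate 2 correlated between all pairs of groups at 0.341 to 0.837 over tested probe sets and 0.430 to 0.878 over 64 controls. The numbers were therefore taken to pair the arrays, on the evidence of these values and not of the labels, and results with the replicate block stand beside the others. The alternatives were the block, the L20 arrays alone without and with it, eBayes with trend and robust settings, only probe sets at or above the median mean level, quantile normalisation, median centring, adjusted p under 0.10, and leaving out each array without and with the block.

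The rule for naming genes took every called probe set with 1 gene and no overlap between groups, the 15 largest changes each way with the block, and, of each list with at least 3 measured genes, all called members and the 3 with the smallest p; some are left out for space. The members and lists were chosen with earlier results of these data known. Lists were matched by locus or by the start of the symbol and are described by counts and medians.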

Additional observations from a re-analysis of the deposited data

How the results depend on the processing

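Limits: with 2 arrays per group the counts move with single arrays and with the treatment of the replicate number, and dim probe sets could not be told from background. Without the block, the count of 86 calls for cold in L20 (63 higher, 23 lower) ranged from 0 to 34 when 1 array was left out (0 to 25 higher, 0 to 9 lower). The lowest counts came from leaving out the L20 array before cold of replicate 1 (0) or either L20 cold array (1). The replicate block gave 580 (290 higher, 290 lower); leaving out an array from it gave 0 to 1721 (0 to 738 higher, 0 to 983 lower), with 0 without replicate 1 and 9 without replicate 2 of L20 after cold (8 higher, 1 lower). Without replicate 1 of L20 before cold the block gave 126 (95 higher, 31 lower), and without replicate 2 of it 548 (179 higher, 369 lower). The 4 L20 arrays alone gave 0 without the block (1966 at an unadjusted p under 0.05) and 330 with it (202 higher, 128 lower). Testing the probe sets at or above the median mean level gave 140 (95 higher, 45 lower), quantile normalisation 204 (134 higher, 70 lower) and an adjusted p under 0.10 gave 247 (131 higher, 116 lower); trend and robust settings (81) and median centring (104) stayed within 1.5 times. In wild type the count of 121 became 357 with the block, 183 with quantile normalisation, 208 at an adjusted p under 0.10, 0 to 91 without 1 array, and 0 to 850 without 1 array with the block (529 without replicate 1 of wild type before cold, 494 without either array of L20 before cold). The 0 calls for the difference of responses stayed 0 except with the block and without replicate 1 (2 calls) or replicate 2 (5 calls) of wild type before cold. The causes were not tested. For 124 named probe sets, 2834 alternatives gave 2248 results with the same direction and side of the threshold, 362 that lost the threshold, 224 that gained it and 0 that changed direction. The 124 include uncalled genes, for which staying uncalled counts as the same side. The total therefore does not measure how stable the calls are. A count of shared promoter motifs was planned and not run.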
